A study of Mus musculus with 4 samples.

Results

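The Hox genes of mouse lie in 4 clusters, HoxA to HoxD, and their places within the map of chromatin near PML bodies in embryonic stem cells are described here. Members were taken by symbol alone, as protein-coding genes of the GENCODE M21 annotation named Hoxa, Hoxb, Hoxc or Hoxd with a number. No measured value enters this rule, although it was set with earlier results of these data known. The rule gave 39 genes of 21911 protein-coding genes, with 11 in HoxA, 10 in HoxB, 9 in HoxC and 9 in HoxD. The assay, ALaP-seq, uses the peroxidase APEX joined to the PML protein, which puts biotin on nearby chromatin when hydrogen peroxide is given. The samples were 2 of E14 mouse embryonic stem cells with the APEX-PML knockin that received the peroxide (H2O2+), and 2 of the same knockin cells that did not (H2O2-). Both groups thus carried the fusion, and both were grown with leukemia inhibitory factor, CHIR99021, which inhibits GSK3, and PD0325901, which inhibits MEK. The file used was 1 list of 26496 peaks in which, by its name, the replicates were merged. It gives positions without any height, score or sample, so H2O2+ cells were not compared with H2O2- cells, no spread between replicates exists here, and the depth behind each peak is unknown. All counts below describe this list, with intervals that cover counting error only, and no test was run.

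Hox genes encode homeodomain transcription factors that give cells their identity along the head-to-tail axis. Within each cluster the genes are numbered from the 3′ end, with low numbers used early and towards the head and high numbers later and towards the tail, and genes of the same number in different clusters are paralogs. In undifferentiated mouse embryonic stem cells the clusters are known to be largely silent, held by Polycomb proteins, rich in CpG islands and poor in repeats, and retinoic acid switches on the 3′ genes first. PML bodies are nuclear structures built by the PML protein.

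The sequences under several Hox peaks are given first, since the results below return to them. They were read from GRCm38, the assembly that mm10 names, and run 5′ to 3′. The first is the sole promoter peak of HoxD, upstream of Hoxd10, at chr2:74691552-74691722 on the plus strand, with its 15 CG dinucleotides in capitals. The second, at chr11:96315268-96315537, lies between genes, 2865 bp upstream of the Hoxb4 start. It is printed from the minus strand, with a match to the PBX-HOX motif TGATNNAT in capitals.
Hoxd10 upstream peak: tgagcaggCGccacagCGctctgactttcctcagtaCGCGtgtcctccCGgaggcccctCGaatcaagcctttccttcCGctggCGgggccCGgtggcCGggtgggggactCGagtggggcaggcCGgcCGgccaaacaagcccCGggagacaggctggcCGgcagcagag
Hoxb4 upstream peak: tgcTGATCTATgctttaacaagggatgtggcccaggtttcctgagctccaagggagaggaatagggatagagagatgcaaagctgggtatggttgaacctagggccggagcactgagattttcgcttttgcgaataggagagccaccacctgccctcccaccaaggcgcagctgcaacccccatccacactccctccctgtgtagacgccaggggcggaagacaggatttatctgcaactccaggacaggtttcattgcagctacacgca

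For the peaks at the annotated starts of Hoxa7 and Hoxa10, 30 bases around a CTCF motif are shown from the minus strand, at chr6:52221800-52221829 and chr6:52240532-52240561. Capitals mark the motif, which was searched as CCANNAG directly followed by NNGGC.
Hoxa7 start peak: aagaaaattCCAGGAGATGGCagtgtggct
Hoxa10 start peak: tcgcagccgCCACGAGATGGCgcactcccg

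A promoter peak was found at 13 of the 39 Hox genes (33.3%, exact Clopper-Pearson 95% interval 19.1 to 50.2%), against 38.4% of all protein-coding genes. A promoter peak was one that overlapped, by 1 bp or more, the sequence within 1 kb of the 5′ end of the gene's annotated model. The Hox share thus lay near that of all genes. Within 500 bp the count was 9 of 39, against 36.1% of all genes, and within 2 kb it was 16 of 39, against 40.3%. With the midpoint required inside the 1 kb window it stayed at 13, against 37.9%. In HoxA Hoxa5, Hoxa7 and Hoxa10 were among the genes with a promoter peak. HoxB had Hoxb5 and Hoxb7, and HoxD had Hoxd10. In HoxC they were Hoxc5, Hoxc8, Hoxc10, Hoxc11, Hoxc12 and Hoxc13.

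The promoter peaks of Hox genes were mostly narrow. Among the 13 genes the widest promoter peak had a median width of 176 bp and ranged from 114 to 502 bp, against a median of 281 bp over the 8413 protein-coding genes with a promoter peak. The widest, 502 bp, covered the start of Hoxc8, which patterns thoracic vertebrae and brachial motor neurons, with its midpoint 217 bp downstream of the start. At Hoxa10, a gene of the lumbar spine and the uterus, the promoter peak was 329 bp wide, and its midpoint lay 255 bp downstream of the model start. Hoxc11, a gene of the posterior axis, had a peak of 298 bp centred 779 bp downstream of its start. Hoxc13, needed for hair formation, had 3 promoter peaks, the widest 241 bp and centred 245 bp upstream, and was the 1 Hox gene with more than 1. Of the 13 genes 5 had a promoter peak that reached the median width of the whole list, 223 bp, which is 12.8% of the 39, against 24.7% of all protein-coding genes.

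The promoter peaks of the other 8 genes were narrower. At Hoxa7, which acts in the thoracic skeleton, the peak was 202 bp wide and its midpoint lay 1 bp upstream of the annotated start. Hoxc10 and Hoxd10, which act in lumbar motor neurons, had peaks of 176 and 171 bp centred 226 and 287 bp upstream. Hoxa5 and Hoxb5, paralogs that act at the level of neck, shoulder and lung, had peaks of 138 and 114 bp centred 50 and 97 bp upstream. The Hoxb7 peak was 149 bp wide and its midpoint lay 583 bp downstream, and that of Hoxc12 was 116 bp wide and lay 802 bp downstream. Midpoints lay upstream of the start at 8 of the 13 genes and downstream at 5. The promoter windows of the 13 genes held 14 distinct peaks.

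The call at Hoxc5 rests on how its start is annotated. Its model begins at chr15:102967443, next to Hoxc10 and 46372 bp before the start of its principal coding transcript at chr15:103013815, and the peak in its window is the Hoxc10 peak, centred 873 bp upstream of the model start. The principal coding start had peaks of its own: a peak of 124 bp ended 18 bp before it, and a peak of 403 bp was centred 528 bp after it. Model and principal coding start lay more than 1 kb apart at 9 of the 39 genes, among them Hoxa7, Hoxa9, Hoxa10, Hoxc4, Hoxc6, Hoxd4 and Hoxd11. At Hoxa7 and Hoxa10 they lay 4349 and 5915 bp apart, so the promoter peaks named above do not lie at the principal coding starts. Those had other peaks, of 192 and 95 bp centred 475 and 189 bp downstream at Hoxa7. At Hoxa10 the other peak was 232 bp wide and centred 468 bp downstream. With the principal coding start, 14 Hox genes had a promoter peak, against 38.8% of the 21824 protein-coding genes that have one. The added gene was Hoxd11, which acts in forearm and kidney, through a peak of 258 bp centred 396 bp upstream of that start.

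**Figure D1:**
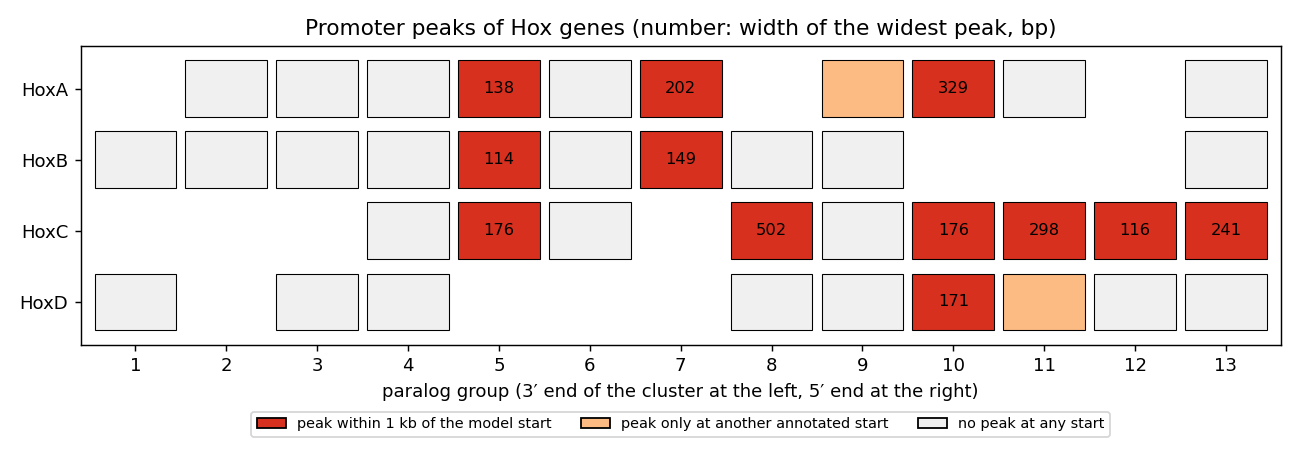
Each box is a Hox gene, with clusters in rows and paralog groups in columns, and red boxes give the width in bp of the widest peak within 1 kb of the model start. Paralog groups 5, 7 and 10 are red in every cluster that has them, groups 2, 3, 4, 6 and 9 have no red box, and Hoxa9 and Hoxd11 have a peak at another annotated start. The red boxes of Hoxc5 and Hoxc10 show the same peak.

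The 26 Hox genes without a promoter peak differed widely in their distance to one. Their nearest peak lay between 1148 bp (Hoxd11) and 46898 bp (Hoxd1) from the start, with a median of 4718.5 bp, and within 5 kb at 13 of them. Just outside the window were Hoxd11, Hoxa9 at 1253 bp and Hoxa3 at 1481 bp, and just inside it were the peaks of Hoxc5, 785 bp from the start, and Hoxc12, 745 bp from it. Hoxa9, a gene of the thoracolumbar axis and of blood progenitors, and Hoxd11 had a peak within 1 kb of another annotated start, which brought the count to 15 of 39 when every annotated start was used, against 42.4% of all genes. Far from any peak were Hoxa13, a gene of digits and the urogenital tract, with its nearest peak 20117 bp away, Hoxb9 at 15675 bp, Hoxa4 at 11604 bp and Hoxd8 at 11333 bp. Hoxb1, which gives identity to a hindbrain segment, had its nearest peak 9050 bp away and Hoxa2 at 6064 bp. Hoxb4, known for its part in blood stem cells, had the peak printed above 2730 bp from its start, and Hoxa6 had one at 2948 bp. Hoxd12 and Hoxc6 had one at 2192 and 2228 bp, and Hoxd13, a digit gene, at 4372 bp. Hoxa11, Hoxb2, Hoxb3, Hoxb6, Hoxb8, Hoxb13, Hoxc4, Hoxc9 and Hoxd9 had theirs between 3711 bp (Hoxb13) and 7789 bp (Hoxb3) away. Hoxd3 and Hoxd4 share nearly the same model start and were 4021 and 4019 bp from the same intronic peak.

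The clusters differed in their counts, but the exact intervals of all 4 overlap. HoxC had a promoter peak at 6 of 9 genes (66.7%, 29.9 to 92.5%) and HoxA at 4 of 11 (36.4%, 10.9 to 69.2%). HoxB had one at 2 of 10 (20.0%, 2.52 to 55.6%) and HoxD at 1 of 9 (11.1%, 0.281 to 48.2%). Each interval includes the 38.4% of all protein-coding genes. The order depends on the window: within 500 bp HoxC had a promoter peak at 3 of 9 genes (33.3%), below HoxA at 4 of 11 (36.4%). Neighbouring genes share peaks and sequence, so genes of a cluster are not independent units.

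Position along the cluster was read in 3 ranges of paralog number, although model starts do not always follow that order, as at Hoxc5. At the 3′ end, groups 1 to 4 had a promoter peak at 1 of 12 genes (8.33%, 0.211 to 38.5%). Groups 5 to 8 had one at 6 of 11 (54.5%, 23.4 to 83.3%), and groups 9 to 13, at the 5′ end, at 6 of 16 (37.5%, 15.2 to 64.6%). The middle range had the highest share here, and the 3 intervals overlap. Each of them includes the 38.4% of all protein-coding genes. That order rests on narrow peaks, as counts with peaks at least as wide as the list median show. Groups 5 to 8 then had a promoter peak at 1 of 11 genes (9.09%) and groups 9 to 13 at 3 of 16 (18.8%). The share of all protein-coding genes was then 24.7%. Drawing the first line after group 3 gave 1 of 8, 6 of 15 and 6 of 16 genes. Within the middle range the counts differed by number: all 3 genes of group 5 and both genes of group 7 had a promoter peak, while 0 of 3 genes of group 6 did. In the 5′ range all 3 genes of group 10 had one, and 0 of 4 genes of group 9 did. The Hoxc5 call in group 5 and the Hoxc10 call in group 10 are the same peak. Groups 11, 12 and 13 had 1 gene each, in each case the HoxC member.

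Hox promoters are rich in CpG, and genes of like CpG content held a promoter peak more often. All protein-coding genes were ranked by the CpG observed/expected ratio of the 500 bp either side of the start and put in 10 classes of equal size. The share with a promoter peak was 34.3% in class 5, 53.4% in class 6 and 64.6% in class 7, and 68.2, 72.3 and 68.9% in classes 8, 9 and 10. All 13 Hox genes with a promoter peak were among the 31 of classes 6 to 10, and the 8 Hox genes of classes 3 to 5 had none. Summed over the 39 members, the shares of their classes come to 21.2 genes, against the 13 observed, a ratio of 0.614. Classes by GC content gave 18.3 genes and a ratio of 0.710. By cluster, 4 genes in HoxA stood against a sum of 6.68, 2 in HoxB against 4.16, 6 in HoxC against 4.75 and 1 in HoxD against 5.59. HoxC was the one cluster above its sum, with calls within 1 kb, and the Hoxc5 call there is the Hoxc10 peak counted again.

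Among Hox genes themselves CpG content separated those with and without a promoter peak less clearly. The median promoter CpG ratio was 0.691 at the 13 genes with a peak and 0.642 at the 26 without. Of the 5 Hox genes in class 10, Hoxa5 and Hoxc12 had a promoter peak and Hoxa4, Hoxa13 and Hoxd13 had none. Hoxa13 and Hoxd13 had ratios of 0.931 and 0.905, and Hoxa5 had 0.996.

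**Figure D2:**
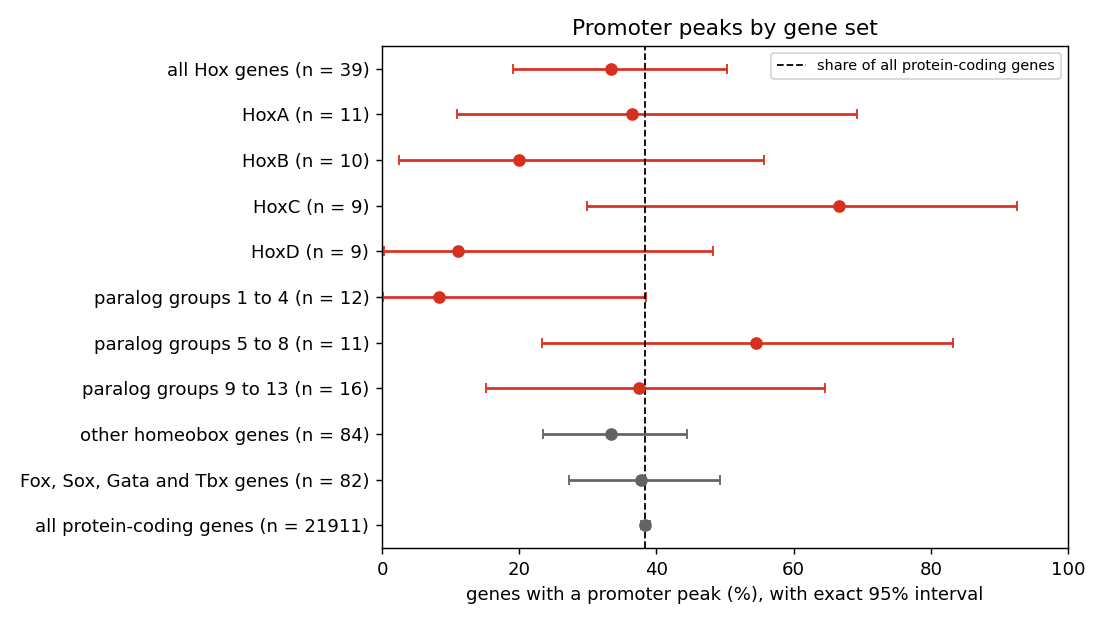
The share of genes with a peak within 1 kb of the start is plotted in percent with its exact 95% interval, in red for Hox genes and their subsets and in grey for 2 other developmental families and all protein-coding genes. HoxC and paralog groups 5 to 8 lie above the dashed line of all protein-coding genes and HoxD and paralog groups 1 to 4 lowest, with wide intervals that reach the line.

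Other families of developmental transcription factors had like shares. A promoter peak was found at 28 of 84 other homeobox genes (33.3%, 23.4 to 44.5%) and at 31 of 82 Fox, Sox, Gata and Tbx genes (37.8%, 27.3 to 49.2%). Sums of CpG class shares were 47.1 and 42.7 genes for these families. Among TALE homeodomain proteins, the DNA-binding partners of Hox proteins, 4 of 9 genes had a promoter peak (44.4%, 13.7 to 78.8%, class sum 4.43). They were Pbx3 (276 bp), Pbx4 (117 bp), Meis2 (232 bp) and Pknox1 (207 bp). Pbx2, Meis1, Meis3 and Pknox2 had none. Among the nearest relatives of Hox genes 4 of 9 had one (44.4%, 13.7 to 78.8%, class sum 5.20). These were Cdx1 (706 bp), Cdx2 (333 bp), Gsx1 (488 bp) and Pdx1 (103 bp). Both intervals include the 38.4% of all protein-coding genes. Cdx1 and Cdx2 encode activators of Hox genes. The Cdx1 peak, at chr18:61034689-61035394, was wider than any promoter peak of a Hox gene. Only part of it lay within 1 kb of the Cdx1 start at chr18:61036199. Evx1 and Evx2, which sit beside HoxA and HoxD, had none, as did Cdx4, Gsx2 and Mnx1.

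Of 18 retinoid pathway genes 4 had a promoter peak (22.2%, 6.41 to 47.6%), against 38.4% of all protein-coding genes, a share within that interval. The sum of their CpG class shares was 6.62 genes. They were the receptor genes Rarg (121 bp) and Rxrb (228 bp), Aldh1a2 (349 bp), which encodes an enzyme of retinoic acid synthesis, and Crabp1 (147 bp), which encodes a carrier of retinoic acid. Rara and Rarb, further receptor genes, and Rdh10, an enzyme of the first step of synthesis, had a peak at another annotated start. The genes of the enzymes that break retinoic acid down, Cyp26a1, Cyp26b1 and Cyp26c1, had none. Nor had Rxra, Rxrg, Aldh1a1, Aldh1a3, Crabp2, Stra6 and Dhrs3.

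Peaks along the clusters were counted between the outermost ends of the Hox gene models. Together the clusters spanned 492 kb and held 41 peaks, 8.34 per 100 kb, which covered 1.91% of the sequence, against 1.00 peak per 100 kb and 0.284% covered over the genome. HoxA, at chr6:52155590-52260880, held 14 peaks in 105 kb, 13.3 per 100 kb (exact Poisson 95% interval 7.27 to 22.3). HoxC, at chr15:102921103-103036852, held 13 in 116 kb, 11.2 per 100 kb (5.98 to 19.2). HoxB, at chr11:96194316-96368256, held 9 in 174 kb, 5.17 per 100 kb (2.37 to 9.82), and HoxD, at chr2:74668310-74765142, held 5 in 96.8 kb, 5.16 per 100 kb (1.68 to 12.1). HoxA and HoxC were thus more densely filled than HoxB and HoxD, with intervals that overlap. With peaks at least as wide as the list median HoxC, at 6.91 per 100 kb, lay above HoxA, at 3.80.

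Windows of the whole genome give the scale. Of 26513 windows of 100 kb, 63.1% held no peak, and 0.298% held at least as many as HoxA, 0.532% as HoxC and 3.78% as HoxB or HoxD. Windows that hold many genes are nearer to a Hox cluster in kind. Among the 446 windows with at least 6 protein-coding starts the median was 4 peaks (quartiles 1 and 7), and 3.36% of them reached the density of HoxA, 6.95% that of HoxC and 39.2% that of HoxB or HoxD. Per the series' design text the reads were mapped to a repeat-masked genome, in which masked bases match no read. Masked bases were counted here by the repeat mask of the GRCm38 sequence, which may differ from the mask used in mapping. They made up 13.4% of HoxA, 15.9% of HoxC, 24.6% of HoxB and 14.4% of HoxD, against 36.4% of the genome. Per 100 kb of unmasked sequence the clusters held 15.4, 13.4, 6.87 and 6.03 peaks in the same order, and the part of masking in these counts was not tested further.

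**Figure D3:**
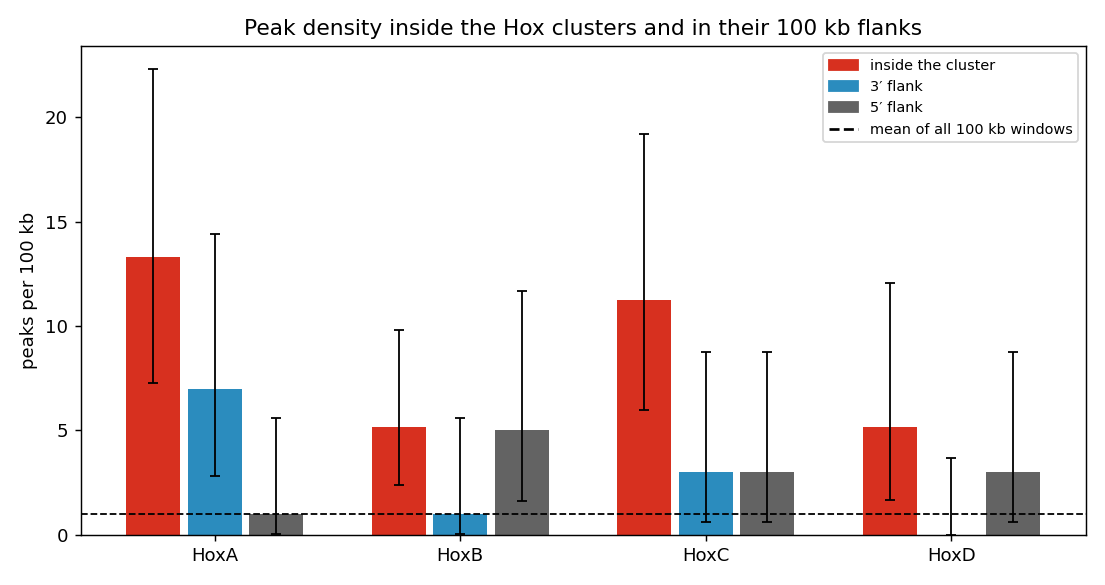
Peaks per 100 kb are shown inside each cluster (red) and in its 3′ (blue) and 5′ (grey) flanks of 100 kb, with exact Poisson 95% intervals, and the dashed line is the mean over all 100 kb windows. HoxA and HoxC reach 13.3 and 11.2 inside, HoxB and HoxD 5.17 and 5.16, and the 3′ flank of HoxD holds 0 peaks.

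The peaks inside the clusters were placed by their midpoint. By Hox gene models 12 of 41 (29.3%) lay within 1 kb of a Hox gene start, 7 (17.1%) in an exon of a Hox gene, 12 (29.3%) in an intron and 10 (24.4%) between Hox genes. Placed by all protein-coding genes instead, 14 of 41 cluster peaks (34.1%) lay at promoters, 7 (17.1%) in exons, 10 (24.4%) in introns and 10 (24.4%) between genes, against 32.4, 5.67, 25.9 and 36.0% of all peaks of the list. With the starts of all annotated genes counted, noncoding ones included, 21 of the 41 (51.2%) lay at promoters. By Hox gene models HoxA had 4, 5, 5 and 0 peaks in the 4 classes, and HoxB had 2, 0, 1 and 6. HoxC had 5, 2, 3 and 3, and HoxD 1, 0, 3 and 1. The HoxA models are long and overlap, so that no peak there counted as lying between genes, whereas 6 of 9 did in HoxB. By principal coding transcripts alone, 16 of the 41 peaks fell in promoter windows, 2 in exons, 8 in introns and 15 between genes. In all, 9 of 41 overlapped a Hox coding sequence, of which 2 lay in Hoxa7 and 1 each in Hoxa9, Hoxa10, Hoxc5, Hoxc8, Hoxc9, Hoxc11 and Hoxc13.

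**Figure D4:**
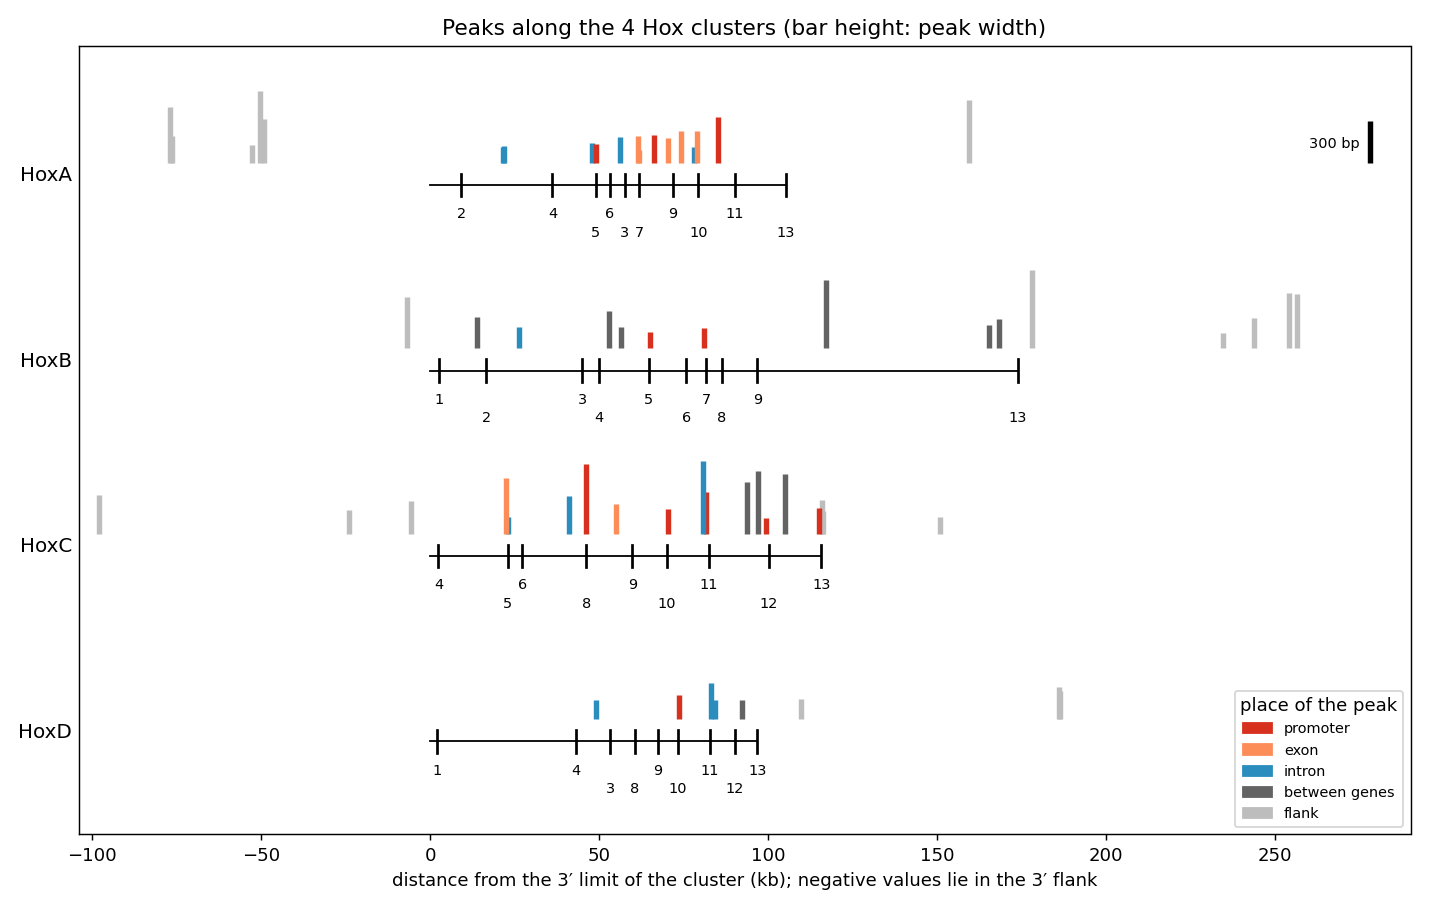
Peaks inside the clusters and within 100 kb of them are drawn at their distance in kb from the 3′ limit of the cluster, with a height that gives the width and a colour that gives the place. Ticks with paralog numbers mark principal coding starts, which for Hoxa3 and Hoxd3 lie far from the coding part, and peaks of HoxB and HoxD leave long stretches empty.

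HoxA peaks clustered in its 5′ part. From 56.2 to 85.0 kb of its 3′ limit the peaks ran through Hoxa7, Hoxa9 and Hoxa10, with a peak in or next to each of these genes. A pair of peaks of 112 and 121 bp lay at the start of 5730596B20Rik, 21.6 and 21.9 kb from the 3′ limit, and beyond them came the longest empty stretch of the cluster, 25.8 kb at chr6:52177571-52203356, which holds the Hoxa4 start. Past the peak at the Hoxa10 start, the stretch from chr6:52240764 to chr6:52314684 was empty for 73.9 kb and holds the model starts of Hoxa10, Hoxa11, Hoxa13 and Evx1. On the 3′ side of its middle HoxA held 5 peaks and on the 5′ side 9.

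HoxC held the widest peaks. Its median width was 298 bp, against 182 bp in HoxA, 166 bp in HoxB and 141 bp in HoxD. The widest of all 4 clusters, 525 bp at chr15:102955753-102956277, lay in the intron of Hoxc11. Between Hoxc13 and Hoxc12 lay a peak of 426 bp at chr15:102931618-102932043. Between Hoxc12 and the noncoding gene Hotair lay peaks of 454 bp at chr15:102939667-102940120 and 375 bp at chr15:102942923-102943297. The stretch without a peak was longest at the 3′ end, 22.3 kb from chr15:103014545 to the cluster limit, which holds the model start of Hoxc4. HoxC held 5 peaks on the 3′ side of its middle and 8 on the 5′ side.

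In HoxB 6 of 9 peaks lay between Hox genes. The widest, 494 bp at chr11:96250781-96251274, covered the start of the noncoding gene Gm53 and lay 20430 bp upstream of Hoxb9. It was followed towards Hoxb13 by 47.7 kb without a peak, at chr11:96203033-96250780, which holds no Hox start. The 270 bp peak upstream of Hoxb4 printed above was the next in width among those between genes. HoxB was the one cluster with more peaks on the 3′ side of its middle, 6 against 3 on the 5′ side.

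HoxD held its 5 peaks on the 5′ side of its middle and 0 on the 3′ side, although the peak in Hoxd3, 49.1 kb from the 3′ limit of the 96.8 kb cluster, fell just past the middle. They lay upstream of Hoxd12 (140 bp), in the Hoxd11 model (141 and 258 bp), upstream of Hoxd10 (171 bp) and in an intron of Hoxd3 (135 bp). After that intronic peak the sequence was empty for 49.1 kb up to the cluster limit past Hoxd1, which acts in pain-sensing neurons, and remained so beyond it. The next peak in that direction began after a gap of 874 kb that holds the protein-coding starts of Gm28230, Hoxd1 and Mtx2. Of 26475 gaps between neighbouring peaks of the list, 514 (1.94%) were at least as long, and the median gap was 19.3 kb. Over all 4 clusters 16 of 41 peaks (39.0%, 24.2 to 55.5%) lay on the 3′ side of the middle.

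The flanks held fewer peaks per length than the clusters. The 8 flanks of 100 kb had 23 peaks, 2.88 per 100 kb (1.82 to 4.31), against 8.34 inside. Counts were uneven between sides. HoxA had 7 in its 3′ flank and 1 in its 5′ flank, HoxB 1 and 5, HoxC 3 and 3, and HoxD 0 and 3. The 3′ flank of HoxA holds groups of peaks near Halr1, with 130, 515 and 313 bp, and farther out, with 401 and 189 bp. In the 5′ flank of HoxC 2 of the 3 peaks were promoter peaks of Hoxc13. The 3 peaks of the HoxD 5′ flank lay at the Lnpk start, with 204 and 235 bp, and in an untranslated exon of Evx2, with 144 bp.

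Inside the clusters the peak sequences were rich in CpG. The 41 peaks had a median GC content of 63.9% and a median CpG ratio of 0.702, against 55.8% and 0.379 over all peaks of the list. The 23 flank peaks had 52.1% and 0.389, close to the whole list. CpG-island-like stretches (windows of 500 bp with at least 55% GC and a CpG ratio of at least 0.65, joined where they overlap) held 31 of the 41 inside peaks (75.6%), 7 of the 23 flank peaks (30.4%) and 36.7% of all peaks. In HoxA all 14 peaks lay in such stretches, in HoxB 5 of 9, in HoxC 9 of 13 and in HoxD 3 of 5. Widths ran the other way, with a median of 188 bp inside, 236 bp in the flanks and 223 bp over the list.

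As in the genome as a whole, most CpG-island-like stretches of the clusters held no peak. Of 88 such stretches 26 (29.5%) held one, against 39.8% of the 20874 in the genome. The counts were 10 of 26 in HoxA (38.5%), 5 of 24 in HoxB (20.8%), 8 of 19 in HoxC (42.1%) and 3 of 19 in HoxD (15.8%). HoxA and HoxC lay near the share of the genome, and HoxB and HoxD below it. These counts are small and no interval was computed for them, so the differences may lie within counting error.

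**Figure D5:**
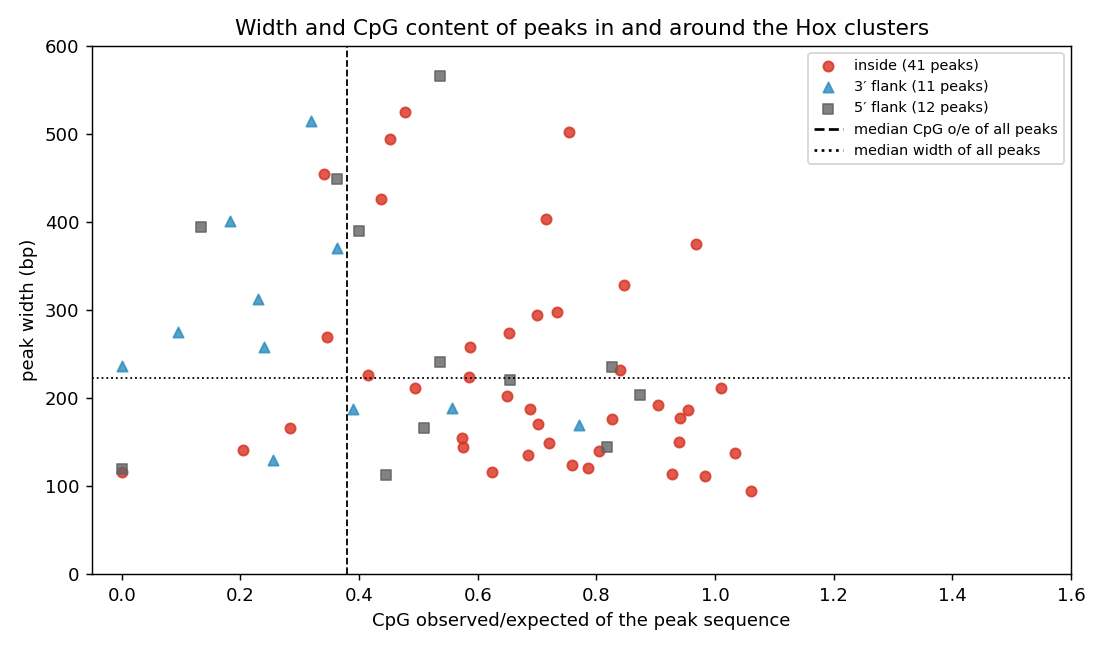
Each point is a peak, with the CpG observed/expected ratio of its sequence on the horizontal axis and its width in bp on the vertical axis, and the lines are the medians of all peaks in the list. Peaks inside the clusters sit mostly right of the CpG median and below the width median, whereas those in 3′ flanks are mostly CpG-poor.

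Short motifs under the 41 peaks were searched on both strands and set beside the list. Every share of the list lay within the exact 95% interval of the cluster peaks, which is wide with 41 peaks. Cluster peaks were also narrower than the list, with medians of 188 and 223 bp. The SP/KLF motif GGGCGG was in 17 of 41 (41.5%) against 33.9% of all peaks, and the word GAGAG in 22 (53.7%) against 54.5%. The word AGGTCA, a binding element of retinoid receptors, was in 3 (7.32%, 1.54 to 19.9%) against 19.7%, and in the 100 bp either side of the midpoint, where all peaks count the same length, in 9.76% against 14.9%. The CTCF motif was in 2 (4.88%), the Hoxa7 and Hoxa10 start peaks, against 4.04%, and the PBX-HOX motif also in 2 (4.88%), upstream of Hoxb4 and between Hoxc12 and Hotair, against 5.42%. The octamer ATGCAAAT was in 1 (2.44% against 3.48%), the E-box CACGTG in 1 (2.44% against 6.99%) and the YY1 motif GCCATNTT in 0, against 5.68%. Retinoic acid response elements often have the form DR5, a pair of such words spaced by NNNNN. It was searched with AGGTCA alone and in a degenerate form, in which the leading A may be G and the G before TCA may be T, and neither was in any inside peak. Of all peaks 14 (0.0528%) held DR5 with AGGTCA alone and 54 (0.204%) the degenerate form. A match describes letters in the reference and not a bound site.

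Noncoding genes of the clusters were also read at their starts, without a share over all noncoding genes to set beside the count. Of 21 noncoding genes with their own symbol in or within 100 kb of a cluster, 6 had a peak within 1 kb: Halr1, Mir196b, Evx1os, Hoxb3os, Mir615 and Hoxd3os1. Noncoding genes with a Gm or Rik name were left out of the 21, and some of them had a peak, Gm53 (494 bp) and Gm11536 (150 bp) among them. Hotair, Hottip, Hotairm1, Haglr and Hoxa11os, long noncoding RNA genes of the clusters, had none, and neither had Hoxaas2, Hoxaas3 and Hoxb5os. Of 10 other protein-coding genes there, 4 had a promoter peak, near the 38.4% of all protein-coding genes. They were 5730596B20Rik, Calcoco2, Ttll6 and Lnpk, while Evx1, Evx2, Mtx2, Skap1, Gm28308 and Gm28230 had none. Within the clusters 10 of 41 peaks lay within 1 kb of the start of a gene that is no Hox member.

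The microRNA genes of the clusters are repeated between them like the Hox genes. Mature forms from RefSeq (GRCm38.p6) are shown with the seed, bases 2 to 8, in capitals. The miR-10 pair shares the seed ACCCUGU and the miR-196 pair AGGUAGU. The hairpin of Mir196b in HoxA had a peak of 226 bp lying 245 bp past its downstream end, and the first mature form of Mir615 in HoxC one of 403 bp lying 382 bp upstream. The nearest peak was 1628 bp upstream at Mir10a, 6692 bp at Mir196a-2, 9988 bp at Mir10b and 13890 bp at Mir196a-1. Members that share a seed thus did not share a nearby peak.
mmu-miR-196b-5p: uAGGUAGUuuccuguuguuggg
mmu-miR-196a-5p: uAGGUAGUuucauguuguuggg
mmu-miR-10a-5p: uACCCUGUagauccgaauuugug
mmu-miR-10b-5p: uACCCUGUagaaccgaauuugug
mmu-miR-615-3p: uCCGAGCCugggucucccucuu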

How the data were processed

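ALaP-seq was done in 2 H2O2+ and 2 H2O2- samples of APEX-PML knockin E14 cells, per the labels. Reads were trimmed with Trimmomatic, mapped with bowtie2 2.3.5.1 to repeat-masked mm10 and cleared of blacklisted and greylisted regions with bedtools, per the series' design text and the submitters' processing notes. The peak caller, its threshold, the merging rule and the use of H2O2- samples in it were in each case not given in the sources used here. As deposited, the list holds the start and end of each peak and no score, so width stood in for a stricter threshold. Those deposited positions count starts from 0 and are printed from 1. Signal tracks were not used here.

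Peaks were joined to GENCODE M21 genes and GRCm38 sequence with Python 3.11.15, pandas 2.3.3, numpy 2.4.6 and scipy 1.17.1, after a trial of the joins on simulated data. A promoter was 1 kb either side of the 5′ end of the gene model, a peak inside a cluster was counted by its midpoint, and CpG classes used 500 bp either side. Shares have exact Clopper-Pearson and densities exact Poisson 95% intervals, which cover counting error only. The members, the gene lists and the alternatives were chosen with earlier results of these data known. The rule for names took every Hox gene, its neighbours within 100 kb and all members of 3 lists (TALE partners, relatives of Hox genes, retinoid pathway), with full values for the 5 widest promoter peaks, the 5 widest peaks between Hox genes and the longest empty stretch of each cluster. Results on 1 Hox gene and its peaks and on 2 list members are not reported or drawn here one by one, although they enter the counts. Values of other peaks were added after they were seen. Reads shared between near-identical paralog sequences were not examined. Alternatives changed the window, the start, the overlap, the width limit, the cluster limits and the flank length.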

Additional observations from a re-analysis of the deposited data

How the results depend on the processing

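Of 111 values computed under other settings 99 stayed within the interval of the main value (the ratio to CpG classes, which has none, stayed close) and 12 moved outside it. Many of these intervals are wide, so staying inside is weak evidence of stability. The HoxC promoter share, for example, fell from 66.7 to 33.3% within 500 bp and stayed inside 29.9 to 92.5%. Most of the 12 came from keeping peaks at least as wide as the list median of 223 bp. Then 5 of 39 Hox genes had a promoter peak (12.8%, against 24.7% of all protein-coding genes), 0% in HoxB and 0% in HoxD, and the share of paralog groups 5 to 8 was 9.09%, below the 18.8% of groups 9 to 13, with 8 genes lost, Hoxa5 and Hoxd10 among them. Densities were then 3.80 peaks per 100 kb in HoxA, 1.72 in HoxB, 6.91 in HoxC and 1.03 in HoxD, which put HoxC above HoxA. The width limit removes peaks over the whole genome too, so a fall in density follows from it, and no genome density under it is given here. Counting the starts of all annotated genes put 51.2% of the cluster peaks at promoters. By principal coding transcripts, a setting chosen after seeing the data, 4.88% lay in exons. Within 100 bp of the midpoint the PBX-HOX, octamer and E-box motifs were each in 0% of cluster peaks.

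A window of 500 bp dropped Hoxb7, Hoxc5, Hoxc11 and Hoxc12, and one of 2 kb added Hoxa3, Hoxa9 and Hoxd11. Requiring at least as much of the peak inside the window as outside it kept the count of 13, against 37.9% of all protein-coding genes. Flanks of 50 and 200 kb held 2.75 and 2.94 peaks per 100 kb. No paired analysis was possible because the merged list names no sample, and for that reason no replicate could be left out. Since the depth is unknown, a gene without a peak is one at which none was listed, and a weaker signal there cannot be told apart from its absence.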

Other observations

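Wider surroundings of the clusters were counted up to 1000 kb. On the 3′ side of HoxD 0 peaks lay within 500 kb and 8 from 500 to 1000 kb, and on its 5′ side 3 lay within 100 kb, 0 from 100 to 500 kb and 7 from 500 to 1000 kb. The protein-coding starts in these stretches were few, with 1 within 500 kb on the 3′ side and 2 on the 5′ side. HoxC lay among peaks on both sides, with 12 from 100 to 250 kb and 11 from 250 to 500 kb on the 3′ side, beside 5 and 7 protein-coding starts, and 7 and 10 on the 5′ side, beside 2 and 9 starts. HoxB had 13 peaks from 100 to 250 kb on its 5′ side, beside 5 starts, and 0 on its 3′ side, beside 0 starts. HoxA had 6 from 100 to 250 kb on its 3′ side, beside 1 start, and 0 on its 5′ side, beside 0 starts.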
